A study of Mus musculus with 8 samples.

Results

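The comparison of mice that ran and ate astaxanthin (AX+ME) with sedentary mice on the same astaxanthin diet (AX) describes what mild exercise added to the hippocampal transcriptome of mice already given the carotenoid. It rests on 4 of the 8 samples of the series, the 2 AX+ME and the 2 AX samples, chosen by their group labels. All animals were male C57BL/6J mice, 11 weeks old and housed singly, and RNA came from powdered whole hippocampus. AX mice ate a powdered diet of which 0.5% was a supplement containing 2% astaxanthin from the alga Haematococcus pluvialis and did not run. AX+ME mice ate the same diet and ran on a treadmill at a mild intensity set from the ventilatory threshold. The remaining 4 samples, used for a second contrast, were sedentary mice on a placebo powder (SED) and mice that ran on the placebo powder (ME). Each group had 8 mice and 2 samples, 1 labelled with the green dye Cy3 and 1 with the red dye Cy5, each alone on its array of a single slide. The sources used here do not say how 8 mice yielded 2 samples, and p-values therefore reflect variation among samples, which could be purely technical. The series title places the study around leptin of the hippocampus, neurogenesis and memory.

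The hippocampus forms spatial memory, and its dentate gyrus adds new granule neurons throughout life. Running is known to raise this neurogenesis, and astaxanthin is a lipid-soluble antioxidant that can reach the brain. Dissected hippocampus can carry tissue from its neighbours: the choroid plexus, the secretory epithelium of the ventricles that makes cerebrospinal fluid and releases transthyretin, folate and growth factors; the ciliated ependyma that lines the ventricles; the fibroblasts of the meninges; and the striatum, thalamus and hypothalamus. In a whole-tissue sample, fewer cells of a type and less RNA per cell cannot be told apart.

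Signal is given as the fluorescence of a probe divided by the 75th percentile of its array, and differences are on the log2 scale. A gene was tested where its probe was well above background on all 4 AX and AX+ME arrays, and 25049 genes or transcripts without a name met this condition, 15289 carrying a gene symbol. Between 63.2% and 76.2% of the spots of these 4 arrays were well above background, and correlations between the 8 arrays lay between 0.987 and 0.998 across genes. The genes tested included 13 of 13 dentate granule cell genes and 14 of 15 pyramidal cell genes. They also included all 21 choroid plexus genes, 18 of 18 meningeal fibroblast genes and 11 of 12 ependymal cilia genes. Of striatal genes 13 of 16 were tested, of hypothalamic peptide genes 11 of 14 and of pituitary hormone genes 6 of 10. Over the whole array 33910 of 55681 probes met the condition, so these counts alone do not show that a neighbouring tissue was present.

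No gene passed for AX+ME against AX. By limma with Benjamini-Hochberg adjustment, 0 genes were higher (0% of those tested) and 0 lower (0%), and the smallest adjusted p was 0.374. At an unadjusted p under 0.05 stood 1412 genes (5.64%), 740 of them higher (2.95%) and 672 lower (2.68%). Genes with a difference of at least 1.5-fold in one direction on both pairs of arrays numbered 44 higher (0.176%) and 14 lower (0.0559%), beside 8 with a difference of that size in opposite directions (0.0319%). Of these, 41 of the 44 and 13 of the 14 had a mean signal below 0.125 of the 75th percentile, a range that held 22.3% of the genes tested. With normexp background correction on the median spot signal, which replaced the processed signal and added an offset, 3 were higher and 3 lower at that size. The median difference of all genes was 0.01 in both dyes together. Across genes, the 2 within-dye differences correlated at 0.189, and they spread with an SD of 0.172 in the Cy3 arrays and 0.259 in the Cy5 arrays. The values that follow therefore describe 2 pairs of arrays and are not calls.

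**Figure D1:**
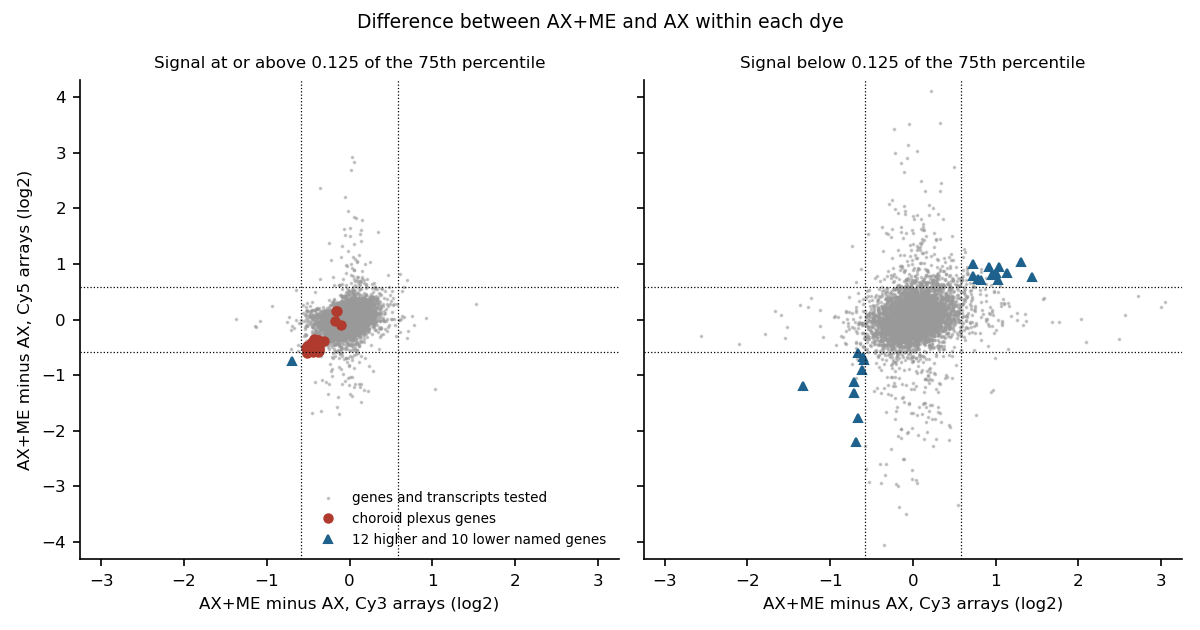
Log2 difference between AX+ME and AX on the Cy3 arrays (horizontal axis) and the Cy5 arrays (vertical axis) for the 25049 genes and transcripts tested, split by signal at 0.125 of the 75th percentile. Dotted lines mark 1.5-fold, red circles the choroid plexus genes and blue triangles 22 of the 28 genes with a symbol at least 1.5-fold apart in both dyes, namely all 10 lower and the first 12 of 18 higher by the smaller within-dye difference. Of these 22, 1 lies in the brighter panel.

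Choroid plexus genes were lower in mice that ran on the astaxanthin diet. Of 21 members tested, 19 were lower in both dyes and none was higher in both, while 26.1% of all genes tested were lower in both dyes and 31.2% higher. Both AX+ME samples lay below both AX samples for 18 of the 21, against 14.1% of all genes. The median difference of the list was -0.42, with -0.38 in Cy3 and -0.43 in Cy5, beside a median of 0.01 over all genes. At an unadjusted p under 0.05, 15 members were lower and 0 higher, where 2.68% of all genes were lower and 2.95% higher at that level. None passed after adjustment over all genes. The list was chosen with earlier results of these data known, and its members share one tissue, so its count is a description.

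The ion and water channels of this epithelium, which drive the secretion of cerebrospinal fluid, had a difference close to the list's median. Aqp1, the apical water channel, had a signal of 2.12 (Cy3) and 2.25 (Cy5) in AX and of 1.52 and 1.56 in AX+ME. Both AX+ME samples were lower than either AX sample, and the log2 difference was -0.50 (SE 0.0762). Kcne2, a potassium channel subunit, stood at 2.08 and 2.62 in AX and 1.56 and 1.82 in AX+ME. The groups did not overlap, although the 2 dyes differed within each group, and the difference was -0.47 (SE 0.0559). Slc4a5, a sodium bicarbonate cotransporter, went from 0.695 and 0.688 in AX to 0.484 and 0.481 in AX+ME. Its 2 within-dye differences were both -0.52, and the adjusted p was 0.406 with limma. A second probe of Slc4a5 showed -0.48 in Cy3 and -0.43 in Cy5. Kcnj13, an inward rectifier potassium channel, had 4.31 and 4.31 in AX and 3.17 and 2.87 in AX+ME. Its difference of -0.51 had a wider SE of 0.189. Its probe lies below array column 70, an area where the SED arrays, which enter the estimate of the spread, were uneven, and the part of this in the SE was not tested. Clic6, a chloride channel family member, was 5.60 and 5.67 in AX and 4.29 and 4.33 in AX+ME, a difference of -0.39 in both dyes. Cldn2, the claudin of leaky epithelial junctions, was 0.529 and 0.478 in AX and 0.382 and 0.356 in AX+ME, lower by -0.45 on the log2 scale (SE 0.0732).

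The receptors, carriers and secreted proteins of the choroid plexus were lower by similar amounts. Steap1, a metalloreductase, had the list's lowest difference at -0.56 (SE 0.0607), from 1.16 and 1.31 in AX to 0.812 and 0.861 in AX+ME. F5, coagulation factor V, went from 0.866 and 0.806 to 0.609 and 0.579, a difference of -0.49 (SE 0.0502). A second F5 probe gave -0.70 in Cy3 and -0.49 in Cy5. Folr1, the folate receptor that carries folate into the cerebrospinal fluid, was 5.35 and 4.72 in AX and 3.93 and 3.59 in AX+ME. Kl, which encodes the FGF23 coreceptor klotho, was 3.70 and 3.73 in AX and 2.84 and 2.90 in AX+ME, the difference being -0.38 in Cy3 and -0.37 in Cy5. Prlr, the prolactin receptor, was 2.20 and 2.54 in AX and 1.70 and 1.83 in AX+ME. Sostdc1, a secreted antagonist of BMP and Wnt signals, was lower by -0.37 (SE 0.0691), and Ecrg4, a secreted peptide precursor, by -0.48 (SE 0.0772). For each of these genes both AX+ME samples lay below both AX samples.

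Of the transcription factors on the list, Otx2, which maintains the identity of the choroid plexus, was lower, and Msx1 had a difference nearer to 0. Otx2 stood at 1.77 and 1.86 in AX and 1.32 and 1.45 in AX+ME (difference -0.39, SE 0.0536). Msx1 stood at 0.942 and 0.981 in AX and 0.874 and 0.911 in AX+ME, a difference of -0.11 (SE 0.0577). Lmx1a, a roof plate factor, had a difference of -0.47 with an SE of 0.371. Ttr, which encodes transthyretin, the major secreted protein of this tissue, and Enpp2, which encodes autotaxin, were saturated on all 4 arrays, so that no difference can be read from them. In both, Cy3 was lower in AX+ME and Cy5 higher, by 0.15 to 0.16 on the log2 scale.

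The promoters of 16 of the 21 members were matched by symbol in RefSeq's mouse annotation of build GRCm38.p6, each as a window of 300 bases that spans a transcript start. They are shown for Otx2 and for a pair of genes with nearly equal differences in both dyes, Slc4a5 and F5, because OTX factors bind the core TAATCC and the members were lower together. Both strands were searched for TAATCC, read as GGATTA on the other strand. A gene was counted where any of its windows held a match. This was so for 1 of the 16 genes (6.25%), Otx2 itself, and for 2199 of all 27025 genes with such a window (8.14%). The share among the members was thus not above that of all genes. Capitals mark the match, on the minus strand of the printed sequence. Otx2 has 4 annotated starts, and the window at chr14:48665060-48665359 on the minus strand holds it. The windows of Slc4a5 at chr6:83237125-83237424 and of F5 at chr1:164151585-164151884, both on the plus strand, hold no match.
Otx2: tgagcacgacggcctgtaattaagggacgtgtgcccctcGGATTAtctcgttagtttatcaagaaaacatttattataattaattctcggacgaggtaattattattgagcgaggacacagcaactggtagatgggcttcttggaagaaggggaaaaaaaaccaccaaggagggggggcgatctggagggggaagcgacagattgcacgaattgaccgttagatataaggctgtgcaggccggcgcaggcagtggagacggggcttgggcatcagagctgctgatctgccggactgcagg
Slc4a5: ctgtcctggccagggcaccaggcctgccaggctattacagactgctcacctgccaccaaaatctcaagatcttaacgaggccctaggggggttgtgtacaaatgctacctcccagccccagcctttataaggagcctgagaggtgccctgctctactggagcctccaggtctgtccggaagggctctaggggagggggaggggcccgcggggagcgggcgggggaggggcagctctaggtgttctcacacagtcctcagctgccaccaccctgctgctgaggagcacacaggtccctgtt
F5: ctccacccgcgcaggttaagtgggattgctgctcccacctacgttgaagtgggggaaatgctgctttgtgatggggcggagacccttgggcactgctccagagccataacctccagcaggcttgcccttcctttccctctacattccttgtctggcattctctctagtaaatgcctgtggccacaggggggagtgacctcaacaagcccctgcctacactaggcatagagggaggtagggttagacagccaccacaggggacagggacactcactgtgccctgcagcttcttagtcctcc

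The choroid plexus genes were also lower after exercise on the placebo diet, in samples that this comparison does not share. For ME against SED the median of the 21 genes was -0.39, with 20 of 21 lower, where 61.1% of all genes were lower by any size. From array column 70 on, away from the uneven part of the SED arrays, the median of the 15 members there was -0.42 for AX+ME against AX and -0.44 for ME against SED. The difference between the 2 exercise effects was tested as an interaction: its median was 0.02 over the list and 0.05 over all genes. By limma 0 of the 21 were called, against 0.910% of all genes, so this count does not show that the 2 effects were equal. The mean log2 level of the list was 1.01 and 1.05 in AX and 0.65 and 0.67 in AX+ME, and on the placebo diet 1.09 and 1.06 in SED and 0.73 and 0.72 in ME. All 4 arrays of running mice thus lay below all 4 arrays of sedentary mice. The 8 arrays sit in the slide with 1 column per group and 1 row per dye, so that group and position on the slide cannot be told apart.

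**Figure D2:**
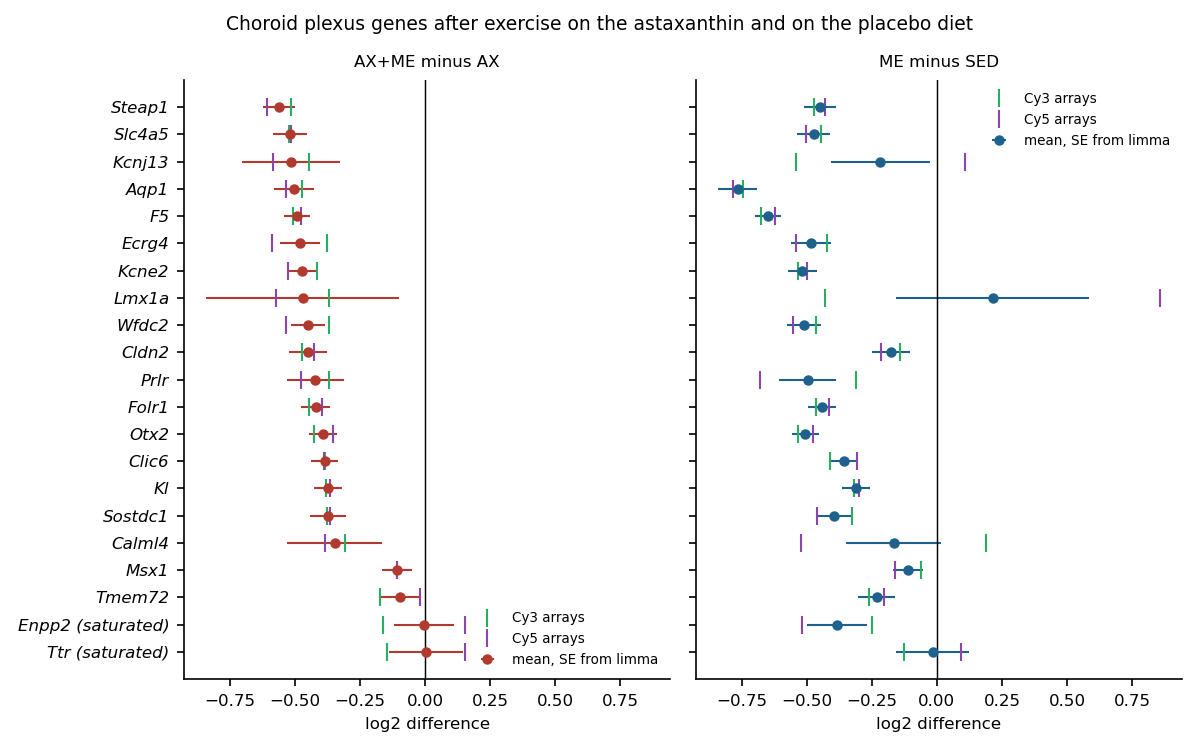
Log2 difference of the 21 choroid plexus genes for AX+ME minus AX (left) and ME minus SED (right). Circles with bars are limma estimates with their SE, green ticks the Cy3 arrays and purple ticks the Cy5 arrays. Members below the median of -0.42 include Steap1, Slc4a5 and Aqp1, while Ttr and Enpp2 are saturated and lie at 0.

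Genes of motile ependymal cilia were lower in AX+ME as well, by less. Of 11 members tested, 8 were lower in both dyes (26.1% of all genes) and none higher, with a median of -0.21 (Cy3 -0.19, Cy5 -0.25). At an unadjusted p under 0.05 stood 6, all lower, where 2.68% of all genes were lower at that level. None passed after adjustment. Rsph1, a radial spoke protein, was 1.14 and 1.26 in AX and 0.976 and 1.07 in AX+ME, and its groups did not overlap. Tmem212, an ependymal membrane protein, went from 0.633 and 0.638 to 0.546 and 0.538 (difference -0.23, SE 0.0549), and Ccdc153 from 1.72 and 1.55 to 1.45 and 1.37 (-0.21, SE 0.0548). Dnah11, a dynein heavy chain of the ciliary outer arm, was 0.107 and 0.122 in AX and 0.0874 and 0.101 in AX+ME. Foxj1, the transcription factor that switches on motile cilia, was 0.796 and 0.768 in AX and 0.799 and 0.675 in AX+ME, with groups that overlap. On the placebo diet ME was below SED for all 11, the median being -0.18.

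**Figure D3:**
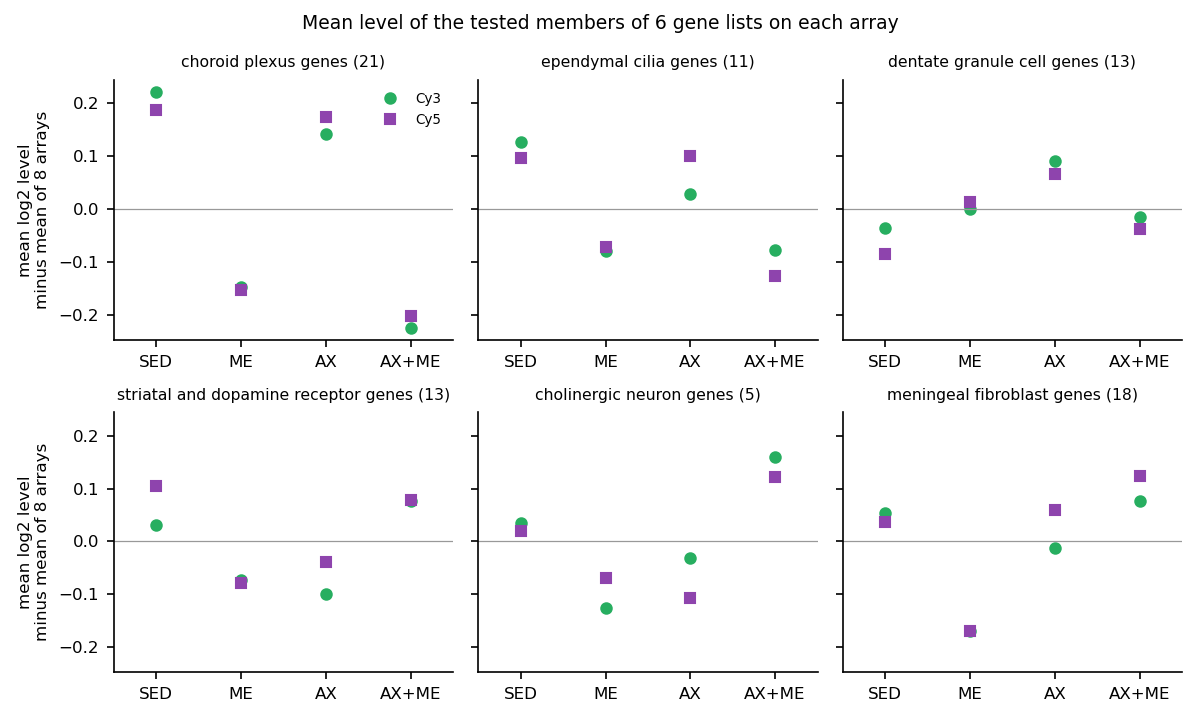
Mean log2 level of the tested members of 6 gene lists on each of the 8 arrays, as the distance from the list's mean over the arrays. Circles are Cy3 and squares Cy5 arrays. Choroid plexus genes lie lower on all 4 arrays of running mice, and the cholinergic list lies highest on both AX+ME arrays.

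Among acute phase genes, 2 were lower by about the size of the choroid plexus genes. Lcn2, lipocalin 2, a siderophore-binding protein made by choroid plexus and reactive glia, was 0.557 and 0.570 in AX and 0.381 and 0.392 in AX+ME. Its 2 within-dye differences were -0.55 and -0.54 (SE 0.0547, adjusted p = 0.374 with limma). Lrg1, a leucine-rich glycoprotein of inflammation and vessels, was 0.384 and 0.390 in AX and 0.250 and 0.263 in AX+ME, a difference of -0.59 (SE 0.0600). Neither gene's groups overlapped. The choroid plexus list was lower alongside them by a median of -0.42, and its part in these differences was not tested. Lrg1 was also lower in ME than in SED, by -0.54 (SE 0.0600), while Lcn2 differed there by -0.12 (SE 0.0547). Of the 9 genes of that list that were tested, 4 were lower in both dyes and none higher (26.1% and 31.2% of all genes). Cp, ceruloplasmin, and Mt3, the brain metallothionein, were within 0.04 of 0. Mt1 and Mt2 were saturated.

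Keratins, the filament proteins of epithelia, went both ways. Krt18, the keratin of simple epithelia, was 1.57 and 1.69 in AX and 1.35 and 1.33 in AX+ME (-0.28, SE 0.0643). Krt23 was 0.131 and 0.128 in AX and 0.0981 and 0.0811 in AX+ME (-0.54, SE 0.0750). Krt80 was higher, from 0.135 and 0.151 in AX to 0.220 and 0.246 in AX+ME, and its difference was 0.70 in both dyes (SE 0.0523). Krt6b was higher too, by 0.62 in Cy3 and 0.34 in Cy5, from a dim signal of 0.0393 and 0.0469. Of 23 keratins tested, 7 were higher in both dyes and 7 lower (31.2% and 26.1% of all genes), and their median was 0.00.

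Genes of striatal and dopamine receptor neurons were somewhat higher in AX+ME. Of 13 members tested, 9 were higher in both dyes and 1 lower (31.2% and 26.1% of all genes), with a median of 0.17. Both AX+ME samples lay above both AX samples for 7 of 13, against 15.6% of all genes. At an unadjusted p under 0.05 stood 3, all higher, where 2.95% of all genes were higher at that level. Drd1, the D1 dopamine receptor, was 0.169 and 0.165 in AX and 0.199 and 0.198 in AX+ME, a difference of 0.25 (SE 0.0562). Penk, the enkephalin precursor, was 7.16 and 7.93 in AX and 8.92 and 9.26 in AX+ME (0.27, SE 0.197). Adora2a, an adenosine receptor of striatal neurons, was 0.161 and 0.158 in AX and 0.190 and 0.171 in AX+ME. Ppp1r1b, which encodes the dopamine signalling protein DARPP-32, was 10.1 and 8.10 in AX and 9.50 and 8.91 in AX+ME, so that the dyes went opposite ways.

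All 5 cholinergic neuron genes tested were higher in both dyes, with a median of 0.21, where 31.2% of all genes were higher in both. For all 5 both AX+ME samples lay above both AX samples, against 15.6% of all genes. Slc5a7, the choline transporter that feeds acetylcholine synthesis, was 0.0428 and 0.0436 in AX and 0.0612 and 0.0551 in AX+ME (0.43, SE 0.0716). Slc18a3, the vesicular acetylcholine transporter, was 0.106 and 0.108 in AX and 0.120 and 0.129 in AX+ME (0.22, SE 0.0600). Chat, which makes acetylcholine, was 0.209 and 0.192 in AX and 0.235 and 0.211 in AX+ME, a difference of 0.15 smaller than its SE of 0.189. Ache, which breaks it down, was 0.886 and 0.702 in AX and 0.910 and 0.910 in AX+ME. Ngfr, the p75 neurotrophin receptor of basal forebrain neurons, differed by 0.05.

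Among hypothalamic peptides, Trh was higher and Oxt lower. Trh, the precursor of thyrotropin-releasing hormone, was 0.0858 and 0.0696 in AX and 0.119 and 0.117 in AX+ME, a difference of 0.48 in Cy3 and 0.74 in Cy5 (SE 0.0853). Exercise on the placebo diet showed Trh lower, by -1.63 (SE 0.0853), from 0.320 and 0.264 in SED to 0.0985 and 0.0899 in ME. Both SED samples thus lay above every other sample, those of sedentary AX mice included. The interaction of 2.24 passed over all genes with an adjusted p of 0.0235 by limma, and among probes from column 70 on it did not pass. Oxt, oxytocin, was 0.208 and 0.208 in AX and 0.150 and 0.157 in AX+ME (-0.44, SE 0.0857). Cartpt, the CART peptide precursor, was 0.644 and 0.660 in AX and 0.714 and 0.777 in AX+ME (0.19, SE 0.0527). Avp and Agrp went opposite ways in the dyes. Of 11 members, 5 were higher in both dyes and 1 lower (31.2% and 26.1% of all genes), with a median of 0.07.

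The pituitary hormone genes did not move one way on the astaxanthin diet. Of 6 tested, 2 were higher in both dyes and 3 lower (31.2% and 26.1% of all genes), with a median of -0.04. The groups did not overlap for 2 higher and 3 lower genes, against 15.6% and 14.1% of all genes. Pomc, the corticotropin and endorphin precursor, was 0.861 and 0.809 in AX and 0.779 and 0.759 in AX+ME, a difference of -0.12 (SE 0.0582). Prl, prolactin, was 0.0826 and 0.0960 in AX and 0.0809 and 0.0787 in AX+ME (-0.16, SE 0.189). Gh, growth hormone, was 0.0640 and 0.0545 in AX and 0.0785 and 0.0718 in AX+ME, with 0.35 and an SE of 0.231. On the placebo diet the same genes were lower in ME than in SED, Prl by -2.77, Gh by -1.63 and Pomc by -1.12. The difference between the exercise effects passed over all genes for Prl (2.61, adjusted p = 0.0384 by limma) and Pomc (1.00, adjusted p = 0.0301 by limma), and from column 70 on neither passed (adjusted p = 0.0808 and 0.0704). Tshb, Fshb, Cga and Pou1f1 were not well above background on all 4 arrays.

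Collagen and transporter genes of meningeal fibroblasts did not move as one. Of 18 tested, 8 were higher in both dyes and 2 lower (31.2% and 26.1% of all genes), with a median of 0.06 (Cy3 0.14, Cy5 0.11). Col3a1, a fibrillar collagen, was 0.158 and 0.166 in AX and 0.191 and 0.196 in AX+ME (0.26, SE 0.0695), and Fmod, fibromodulin, was 0.375 and 0.334 in AX and 0.425 and 0.433 in AX+ME (0.28, SE 0.0748). Slc13a4, a sulfate transporter, was lower, 4.94 and 4.85 in AX against 4.54 and 4.11 in AX+ME. Dcn and Lum, the small proteoglycans, were within 0.03 of 0. On the placebo diet the list's median was -0.37, and the interaction median of 0.43 lay above the 0.05 of all genes. Col3a1 had an interaction of 1.099 (adjusted p = 0.0311 by limma over all genes).

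Dentate granule cell genes, which mark the neurons of the region that receives newborn cells, were slightly lower. Of 13 tested, 10 were lower in both dyes (26.1% of all genes) and none was higher, with a median of -0.11. At an unadjusted p under 0.05 stood 1, which was lower, where 2.68% of all genes were lower at that level. Dsp, desmoplakin, was 1.37 and 1.53 in AX and 1.20 and 1.29 in AX+ME (-0.22, SE 0.0556), with groups that did not overlap. Calb1, calbindin, was 0.357 and 0.362 in AX and 0.318 and 0.309 in AX+ME, a difference of -0.20 with an SE of 0.278. Prox1, the fate-determining factor of granule cells, was 0.430 and 0.448 in AX and 0.393 and 0.413 in AX+ME (-0.12, SE 0.160). The probes of Calb1 and Prox1 lie below array column 70, where the SED arrays, which enter the SE, were uneven. SED stood at 0.236 and 0.138 for Calb1 and at 0.393 and 0.567 for Prox1. The part of SED in these SEs was not tested. The median difference of the list on the placebo diet was 0.00. Its mean log2 level was 0.66 and 0.63 in AX and 0.55 and 0.53 in AX+ME. On the placebo diet it was 0.53 and 0.48 in SED and 0.57 and 0.58 in ME. Both AX samples thus lay above every other sample, those of sedentary placebo mice included.

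The lists nearest to neurogenesis stayed close to the median of all genes. Among neural stem and progenitor genes 2 of 18 were higher in both dyes and 8 lower (median -0.05). Hes5, a Notch target of stem cells, was 4.45 and 4.53 in AX and 4.99 and 4.89 in AX+ME (0.14, SE 0.0691). Among immature neuron genes 4 of 13 were higher and 3 lower (median 0.02), and Neurod1, a differentiation factor, differed by -0.15 (SE 0.0753). Among cell cycle genes 6 of 19 were higher and 3 lower (median 0.02), with Ccna2 at 0.13 (SE 0.110) and Mcm6 at -0.10 (SE 0.0537). Top2a, Ccnb1, Cdk1, Aurkb and Bub1, genes of dividing cells, were not well above background on all 4 arrays. Igfbpl1, a gene of newborn granule neurons, was 0.149 and 0.154 in AX and 0.140 and 0.143 in AX+ME.

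The leptin gene itself was near the background. Lep had 1 probe, with a signal of 0.0140 (Cy3) and 0.0129 (Cy5) in AX and 0.0218 and 0.0226 in AX+ME. It was well above background on both AX+ME arrays and on the Cy3 array of AX, and not on the Cy5 array of AX, so it could not be tested here. Its measured difference was 0.63 in Cy3 and 0.81 in Cy5. In SED the probe stood at 0.0126 and 0.00733, well above background on neither array, and in ME at 0.0123 and 0.0149, above it on 1. The receptor gene Lepr, by its brightest probe, was 2.33 and 1.94 in AX and 2.40 and 2.02 in AX+ME, a difference of 0.05 (SE 0.0575). A second probe of Lepr showed 0.05 in Cy3 and 0.12 in Cy5, and another -0.28 and -0.30 from a dim signal of 0.0480 and 0.0357, so the probes did not point one way. Of 19 leptin signalling genes tested, 7 were higher in both dyes and 7 lower, with a median of 0.00. Stat5a, a transcription factor of cytokine receptors, was 0.105 and 0.104 in AX and 0.0956 and 0.0839 in AX+ME (-0.22, SE 0.0681). Socs3, the feedback inhibitor of leptin signalling, was 0.276 and 0.257 in AX and 0.292 and 0.282 in AX+ME (0.11, SE 0.0518), and Irs2, an insulin receptor substrate, differed by -0.09 (SE 0.0634).

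Genes of red blood cells split. Of 8 tested, 6 were lower in both dyes and 2 higher (26.1% and 31.2% of all genes), with a median of -0.14. Alas2, the enzyme that starts heme synthesis in red cells, was 0.0917 and 0.0841 in AX and 0.0700 and 0.0648 in AX+ME (-0.38, SE 0.0666), and Hbb-bt, an adult globin, was 2.85 and 2.72 in AX and 2.55 and 2.37 in AX+ME (-0.18, SE 0.0573). Hbb-bh1, an embryonic globin, was higher, 0.0335 and 0.0474 in AX and 0.0524 and 0.0741 in AX+ME, and so was Slc4a1, the red cell anion exchanger, with 0.0620 and 0.0708 in AX and 0.109 and 0.116 in AX+ME. Hbb-bt has a near-identical copy, Hbb-bs, so that probes of this pair may share signal.

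Genes of synapses and receptors differed by little. Synaptic vesicle genes had a median of 0.03, with 7 of 21 higher in both dyes and 1 lower. The dyes disagreed for the other 13, and the list's median was -0.10 in Cy3 and 0.16 in Cy5. Stx1a, a fusion protein of the presynaptic membrane, was 4.60 and 3.72 in AX and 4.91 and 4.55 in AX+ME (0.19, SE 0.0707). Ionotropic glutamate receptor genes had a median of -0.01, with 2 of 15 higher and 6 lower. Grin2a, an NMDA receptor subunit, was 2.13 and 2.11 in AX and 1.97 and 1.87 in AX+ME (-0.15, SE 0.0542). Gria2, the AMPA receptor subunit that sets calcium permeability, differed by -0.16 (SE 0.0682). Gabra2, a GABA-A receptor subunit, was 1.73 and 1.80 in AX and 1.30 and 1.53 in AX+ME (-0.32, SE 0.140). Genes of CaM kinases, CREB and the postsynaptic density had a median of 0.03, potassium channel genes -0.01 and interneuron genes 0.03. Among potassium channels, Kcnk9, the TASK3 leak channel, was 0.0579 and 0.0753 in AX and 0.107 and 0.0948 in AX+ME (0.61, SE 0.147).

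Genes of activity, stress, metabolism and glia also stayed near 0. Immediate early genes had 6 of 27 higher in both dyes and 10 lower (median -0.03), and Klf2, Klf4 and Dusp6 differed by -0.13, -0.15 and -0.08. Antioxidant and Nrf2 target genes, the group nearest to the action of astaxanthin, had 6 of 28 higher and 7 lower (median 0.00). Catalase, Cat, was 10.3 and 11.7 in AX and 8.55 and 10.5 in AX+ME, a difference of -0.21 with an SE of 0.161. A second Cat probe showed -0.024 in Cy3 and 0.0036 in Cy5. Hmox1, heme oxygenase 1, differed by 0.08 (SE 0.0501). Mitochondrial ribosome genes had a median of 0.01 and energy sensor genes of -0.01. Respiratory chain genes had a median of 0.00, which was -0.02 in Cy3 and 0.12 in Cy5, with 28 of 38 opposite between the dyes. Slc16a3 and Slc16a1, which carry lactate, were higher by 0.18 (SE 0.0502) and 0.14 (SE 0.0518). Aldh1a2, which makes retinoic acid, was 0.816 and 0.852 in AX and 0.953 and 0.961 in AX+ME, and Bco2, an enzyme that cleaves carotenoids, was 0.268 and 0.265 in AX and 0.294 and 0.295 in AX+ME (0.14, SE 0.0699). Nr1d1, a repressor of the circadian clock, was 0.831 and 0.843 in AX and 0.929 and 0.949 in AX+ME (0.17, SE 0.0487), with groups that did not overlap. Astrocyte, microglial and myelin genes had medians of 0.00, -0.02 and -0.01, and brain endothelial genes 0.02.

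Of the 18 genes with a symbol that were higher by 1.5-fold in both dyes, the first 12 by the smaller of the 2 within-dye differences were dim, and 7 of them were olfactory receptor genes. Olfr1232 was 0.0318 and 0.0331 in AX and 0.0653 and 0.0641 in AX+ME, a difference of 1.04 in Cy3 and 0.95 in Cy5 (SE 0.0635, adjusted p = 0.374 by limma). Olfr608, Olfr1339, Olfr29-ps1, Olfr901, Olfr166 and Olfr122 were higher by 0.76 to 1.105. Taar4, a trace amine receptor of the nose, was 0.0293 and 0.0307 in AX and 0.0727 and 0.0630 in AX+ME. The remaining 4 were Ltb4r2, a leukotriene B4 receptor, Hlx, a homeobox factor, Psg21, a pregnancy glycoprotein, and Slc4a1. Of 151 olfactory receptor genes tested, of 1070 on the array, 81 were higher in both dyes and 17 lower. Over all genes tested the shares were 31.2% and 26.1%. The median of the olfactory receptor genes was 0.13, and 113 lay in the dim range. Receptors of this family are similar in sequence, so that probes may share signal.

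The 10 genes with a symbol that were lower by 1.5-fold in both dyes were dim except Tex22. Tex22, a testis protein, was 1.56 and 1.59 in AX and 0.964 and 0.949 in AX+ME, a difference of -0.69 in Cy3 and -0.75 in Cy5 (SE 0.111). Its 2 pairs of samples lay far apart. Scgb3a1, a secretoglobin of airway epithelium, was 0.101 and 0.0897 in AX and 0.0404 and 0.0393 in AX+ME (-1.26, SE 0.104, adjusted p = 0.374 by limma). Pon1, paraoxonase 1, a lipoprotein-bound antioxidant enzyme made by the liver, was 0.0607 and 0.0721 in AX and 0.0372 and 0.0330 in AX+ME (-0.92, SE 0.124). Scgb3a1 stood at 0.0512 and 0.0437 in SED and 0.0466 and 0.0344 in ME. Pon1 stood at 0.0505 and 0.0452 in SED and 0.0462 and 0.0420 in ME. For both genes the AX samples thus lay above every other sample. Rrh, peropsin, a retinal-binding opsin, was 0.0671 and 0.0730 in AX and 0.0444 and 0.0441 in AX+ME (-0.66, SE 0.0619). It was also lower in ME than in SED, by -0.38 (SE 0.0619). Zc3hav1, an antiviral zinc finger protein, differed by -0.77 (SE 0.0932) and Xlr4b by -1.02 (SE 0.165). Gmnc, which starts the program of multiciliated cells, was 0.0863 and 0.108 in AX and 0.0569 and 0.0674 in AX+ME, with an SE of 0.474 around its difference of -0.64. Its within-dye differences were -0.60 and -0.68. The Gmnc probe lies below array column 70, and SED, which enters the SE, stood at 0.0420 and 0.160. The part of SED in this SE was not tested. Efhb, a calcium-binding protein of cilia, differed by -0.63 (SE 0.190). For Cdh3 and Lrrc71 the Cy5 sample of AX stood apart, at 2.52 and 5.39 times the Cy3 sample, beside differences of -1.45 (SE 0.382) and -1.22 (SE 0.719). The groups overlap for Lrrc71, whose Cy5 sample of AX+ME lay above the Cy3 sample of AX.

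**Figure D4:**
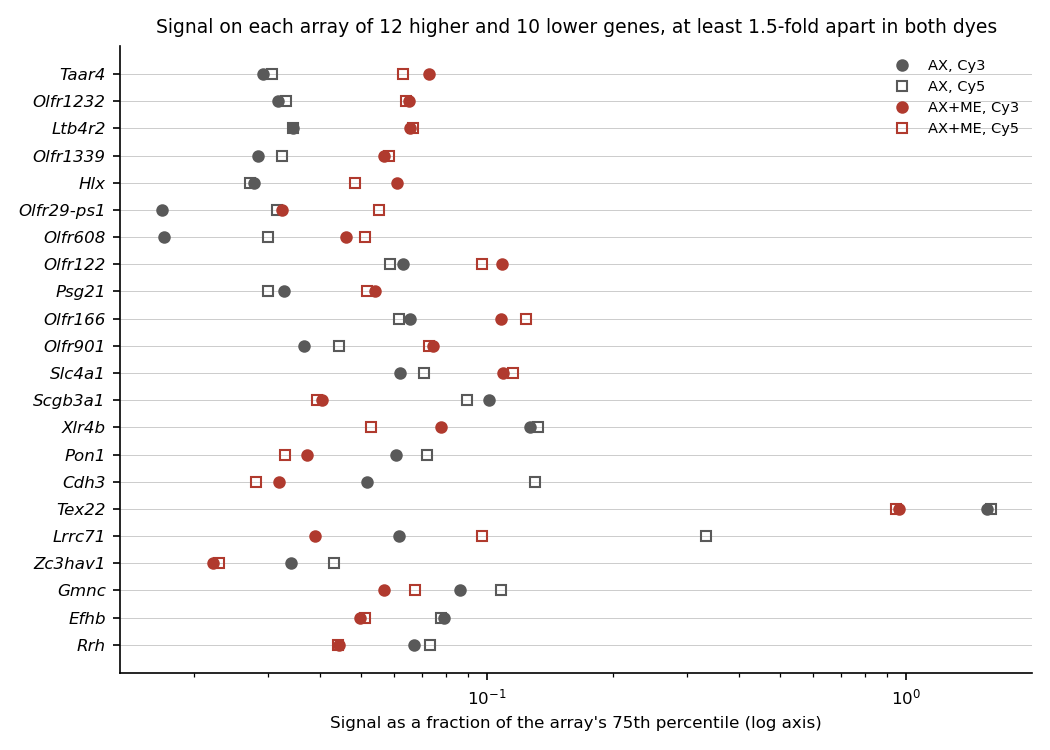
Signal of these 12 higher and 10 lower genes, as a fraction of the array's 75th percentile on a log axis, on the 2 AX arrays (grey) and the 2 AX+ME arrays (red), filled for Cy3 and open for Cy5. The upper 12 genes are higher in AX+ME and the lower 10 lower, and Tex22 alone lies near 1, while Cdh3 and Lrrc71 show an AX Cy5 sample away from the rest.

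A further 28 genes with a symbol were well above background on both arrays of one group and on neither array of the other, so that only a bound can be given, against the lowest signal well above background. Of these, 25 were brighter in AX, led by Wfdc16 (at least 5.48-fold higher in AX), Mob1a (at least 4.32-fold higher), 2700099C18Rik (at least 3.74-fold higher), Lif (at least 3.04-fold higher) and Hsd3b4 (at least 2.95-fold higher). The Cy5 sample of AX was the higher of the 2 AX samples in all 25, and by at least 2-fold in 23. Wfdc16, for example, had 0.0437 in Cy3 and 0.160 in Cy5 of AX, and 0.0104 and 0.0108 in AX+ME. Each bound rests on the mean of both arrays and need not hold within Cy3. There Mob1a stood at 0.0175 in AX and 0.0117 in AX+ME, and Hsd3b4 at 0.0109 and 0.0100. Lpcat4, also among the 25, was 0.0120 in AX and 0.0121 in AX+ME in Cy3. The Cy5 array of AX held 329 probes at least 4-fold above all other Cy5 arrays, 326 of them in the first 192 of 384 rows, and the 3 other Cy5 arrays held between 310 and 462, also mostly in those rows. The part of these spots in the bounds was not tested. The 3 genes brighter in AX+ME were Olfr1222 (at least 1.82-fold higher in AX+ME), Olfr136 (at least 1.56-fold higher) and Vmn1r80, a vomeronasal receptor (at least 1.31-fold higher).

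The effect of exercise on the astaxanthin diet was set against that on the placebo diet across the 25049 genes. The 2 differences share no sample, and their correlation across genes was 0.102, or 0.154 over genes with a probe from column 70 on. By limma the interaction called 228 genes (0.910%), 39 with a higher and 189 with a lower value on the astaxanthin diet, and 196 of the 228 had their probe below column 70. In that area both SED arrays were uneven: 408 kept probes were at least 0.8 lower on the log2 scale in SED than in every other group in both dyes, and all 408 lay there, against 42.0% of the kept probes. ME had 3 such probes, and neither AX nor AX+ME had any. When the fit was limited to probes from column 70 on, 0 of 16182 genes were called (0%), with a smallest adjusted p of 0.0704 and 2188 at an unadjusted p under 0.05. The count of 228 became 3839 without SED replicate 1, 1094 without SED replicate 2, and 0 without any 1 of the other 6 samples. Across the 48 lists, choroid plexus and ependymal cilia genes had a like median on both diets, whereas the pituitary list had -0.58 on placebo and -0.04 on astaxanthin.

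**Figure D5:**
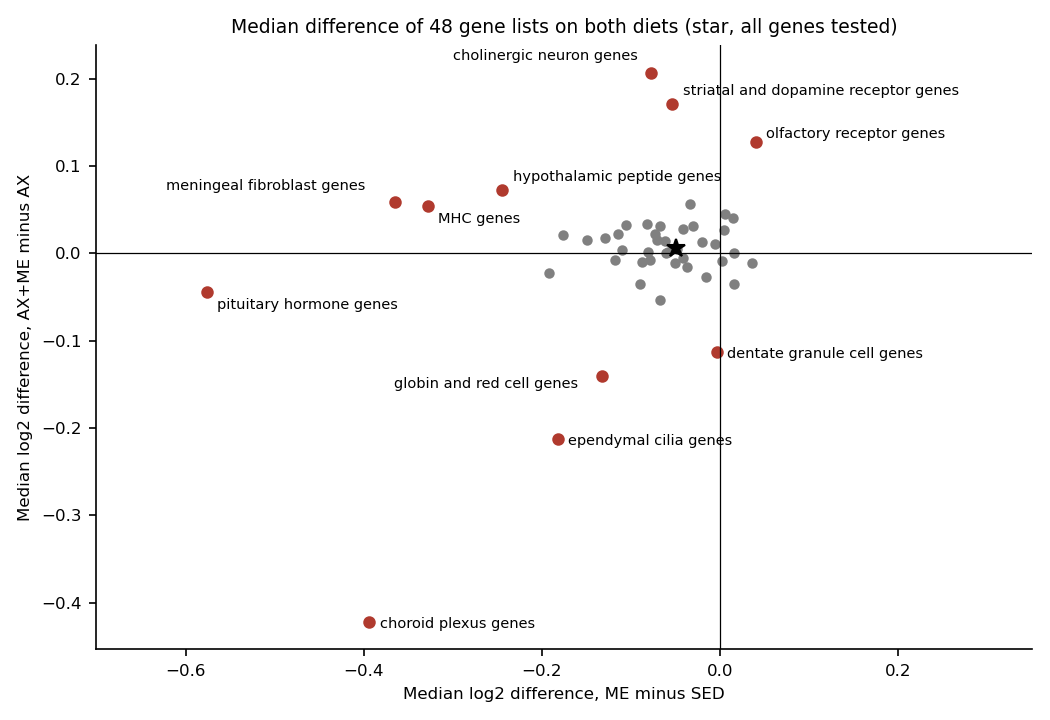
Median log2 difference of 48 gene lists for ME minus SED (horizontal axis) and AX+ME minus AX (vertical axis), 1 point per list, with a star for all genes tested. The choroid plexus list lies at -0.39 and -0.42, the ependymal list at -0.18 and -0.21, and most other lists lie near the star.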

How the data were processed

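Hippocampal RNA was profiled on Agilent SurePrint G3 Mouse GE 8x60K arrays. The deposited scanner files hold spot intensity on a linear scale. Feature Extraction 11.0.1.1 is the software named in the submitters' processing notes, and per the file headers the authors subtracted background and removed spatial trends inside each array, with no scaling from array to array. The deposited series-wide table holds the same intensity rounded to whole numbers, within 0.5 of the scanner value on all 8 arrays. Of 59305 non-control spots (3671 control spots and non-uniform spots were left out, saturated spots kept), spots of a probe were averaged to 55681 probes, 26582 of them named through their accession and RefSeq's gene table. The processed signal of the sample's own channel was divided by the array's 75th percentile, floored at 0.001 and put on the log2 scale. For each gene the brightest of its probes well above background on all 4 AX and AX+ME arrays was used (33910 probes). All 8 samples entered a limma 3.58.1 fit in R 4.3.3 with terms for group and dye (3 residual and 1.77 prior degrees of freedom), two-sided, with Benjamini-Hochberg adjustment and a threshold of 0.05. Dye, replicate number and slide row coincide.

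The named genes were the 12 highest and 12 lowest past the threshold, otherwise those with a symbol and a difference of at least 1.5-fold in one direction on both pairs of arrays, ranked by the smaller within-dye difference; up to 4 members of each of 48 lists; Lep and Lepr; and the 5 highest bounds each way. Further list members that complete a described group were named after their values were seen. For a bound, the dim group took on each array the lowest signal well above background, or the probe's own where that was higher, and the means of both groups were divided. The comparison, rules and lists were chosen with earlier results of these data known. The fit was tested on simulated data. The number of arrays limits the precision. Alternatives covered scaling, background correction, filters, probe choice, array area, value source, samples and model terms. Background correction was run on the median signal, since the files hold no mean signal column. Some results are not reported here.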

Additional observations from a re-analysis of the deposited data

Results flagged for a closer look

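For 11 genes named in the text the effect of exercise differed between the diets by limma's interaction test over all genes, as the log2 difference on the astaxanthin diet minus that on placebo. It was 2.61 for Prl, 2.24 for Trh, 1.39 for Hbb-bh1, 1.099 for Col3a1, 1.06 for H2-Q1, 1.00 for Pomc, 0.84 for Drd1 and 0.79 for Krt80, and -0.73 for Opalin, -1.35 for Cenpa and -1.37 for Cry1. The last 3 were within 0.08 of 0 on the astaxanthin diet, and each has its probe below array column 70, the area where the SED arrays were uneven. In the fit from column 70 on, 0 genes passed.

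In the channel that held no sample, 1.53% of spots were well above background on the Cy3 array of AX+ME and 1.11% on the Cy3 array of AX, beside 1.00% on the Cy3 array of SED.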

How the results depend on the processing

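For AX+ME against AX limma called 0 genes higher and 0 lower under each of the alternatives that gave this count, while genes at an unadjusted p under 0.05 ranged from 652 to 2466. The model has the dye, and so the replicate number, as a term; with no replicate block 0 genes were called and 853 had an unadjusted p under 0.05. The count of genes at least 1.5-fold higher, lower or opposite was 44, 14 and 8. It became 3, 3 and 1 with normexp on median signals, 785, 661 and 1040 with no filter on background, 178, 87 and 39 with a filter on any group, and 1, 1 and 1 at 2-fold. The count lower was 24 with quantile normalization and 9 from column 70 on, where the opposite count was 4. With 1 of the 4 samples left out, only the other dye remained, and the counts ran from 185 to 417 higher and from 102 to 286 lower. The 228 genes called for the interaction became 0 with no filter and 0 from column 70 on, and ran from 0 to 3839 with 1 sample left out; the cause was not tested. The choroid plexus median, in alternatives added after the data were seen, stayed between -0.44 and -0.39.

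The 12 higher and 10 lower genes ranked by the smaller within-dye difference reversed in none of the alternatives run on them, and of 208 genes the rule named, 173 never reversed. Of 111 genes in the text, 97 never reversed. Lepr was -0.051 as a mean over probes. Enpp2, Mt1 and Mt2, all saturated, were 0.0025, 0.0024 and 0.0025 with normexp, and Ttr was -0.0053 with cyclic loess. With 1 sample left out, the log2 difference ran from -0.62 to 0.47 for Agrp, -0.71 to 0.25 for Avp, -0.023 to 0.15 for Cenpa, -0.060 to 0.0057 for Cp, -0.069 to 0.052 for Dcn, -0.15 to 0.15 for Enpp2, -0.18 to 0.12 for Lum, -0.13 to 0.13 for Mt1, -0.23 to 0.22 for Mt2, -0.044 to 0.12 for Mt3, -0.10 to 0.15 for Ppp1r1b, -0.35 to 0.032 for Prl and -0.20 to 0.21 for Ttr. Dim signal and 2 arrays per group limit what can be seen.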
